A study of Arabidopsis thaliana with 8 samples.

Results

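The genes described here are those that red light raised in wild-type Arabidopsis thaliana seedlings and that stood higher still in the phyB mutant. They were chosen on the mean RPKM (reads per unit of gene length and library depth) of the 2 libraries in each group, by 3 conditions. The mean in red-treated wild type (WT red) was at least 2 RPKM and at least 2 times that of dark wild type (WT dark), and the mean in red-treated phyB (phyB red) was at least 1.5 times that of WT red. ELIP1 (AT3G22840) and ELIP2 (AT4G14690), which meet these conditions, were left out by name. This left 65 of 27416 gene models. A total of 1167 genes met the conditions on wild type, and the 1102 of them that are not among the 65 are called the other red-raised genes.

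All seedlings were of the Col ecotype and 4.5 days old. They had germinated on half-strength medium with 1% sucrose after 12 h of white light and 21 h more, and then grew for 4 days in darkness at 22 °C. The 4 groups held 2 libraries each. WT dark stayed in darkness, while WT red, phyB red and the phyA phyB double mutant (phyAB red) were given red light for 1 h, at a photon flux of 50 µmol m-2 s-1. The labels do not describe the mutant alleles, and the mutants kept in darkness were not analysed here. A difference between a mutant and wild type after red light cannot be told apart from one already present in darkness. Nothing in the labels says that the 2 libraries of a group came from separate cultures, so p-values measure the spread between these libraries, which may be technical.

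Phytochromes are red and far-red light receptors that move into the nucleus when light converts them to the active form. There they act on the phytochrome-interacting factors (PIFs) and on the COP1/SPA complex, so that a dark-grown seedling stops stretching and builds chloroplasts. PhyB is stable in light and is the main receptor of continuous red light. PhyA accumulates in darkness, is broken down in red light, and senses far-red and very weak light. The nuclear genes of photosynthesis, such as those of the light-harvesting antenna and of Rubisco, are among the best known targets of both receptors in etiolated seedlings.

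Libraries held 15926547 to 22116924 reads, and the variance between libraries of a group was 1.35 to 1.47 times what counting alone gives. PHYA stood at 217 and 215 RPKM for WT dark, 118 and 120.1 for WT red, 185 and 185 for phyB red, and 33.0 and 32.9 for phyAB red. PHYB stood at 20.1 and 20.3 RPKM for WT dark, 23.5 and 23.3 for WT red, 15.7 and 16.2 for phyB red, and 13.5 and 12.9 for phyAB red. Both genes were thus lowest in the libraries labelled phyAB, and PHYB was lower in the phyB libraries than in either wild-type group. Markers of other tissue were summed by library. The 4 root and endoplasmic reticulum body genes came to 8562 and 8574 RPKM for WT dark, 11257 and 11239 for WT red, 7052 and 7080.0 for phyB red, and 9991 and 9948 for phyAB red. Their sum was thus lowest in phyB red and highest in WT red. PYK10 made up most of it, at a mean of 9863 RPKM in WT red, and NAI2 and BGLU22 had the same extremes. BGLU21 differed, with means of 57.8 RPKM for WT dark, 49.4 for WT red, 45.8 for phyB red and 59.9 for phyAB red. The 3 genes of green tissue (LHCB1.1, RBCS1A and RCA) came to 585 and 593 RPKM for WT dark, 2365 and 2372 for WT red, 2960.1 and 2944 for phyB red, and 1112 and 1121 for phyAB red, the same order of groups as in the 40 genes that phyAB red placed above WT dark and below both WT red and phyB red. The 9 seed storage genes summed to 1.65 to 3.02 RPKM outside phyAB red but to 43.4 and 42.6 for phyAB red. CRC, CRA1 and OLE2 made up most of that sum, at phyAB red means of 15.25, 13.4 and 8.04 RPKM. SESA4 did not rise, at 0.0335 RPKM for phyAB red against 0.0751 for WT dark. PORA, a chlorophyll synthesis gene of etiolated tissue, was also high in phyAB red, at 269 and 269 RPKM against 93.0 and 97.4 for WT dark. The part of these marker shifts in the values below was not tested. In RNA of seedlings, fewer cells of a type and less RNA per cell cannot be told apart.

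The values that chose the genes ranged widely for the red response and narrowly for the phyB step. WT red was 2.02 to 157 times WT dark, with a median of 3.58, and 12 of the 65 genes stood at least 10 times higher. PhyB red was 1.5001 to 2.63 times WT red, with a median of 1.62, and 8 genes stood at least 2 times higher. Those 8 were AT1G78450, AT4G15690, AT4G15700, THI2.2, AT1G36675, AT1G63880, MSRB6 and LHCB2.3. The rule read these groups, so the values are descriptions. With the 2 steps together, phyB red reached 3.06 to 255 times WT dark, with a median of 6.60. Both phyB red libraries lay above both WT red libraries for all 65 genes, beside 37.0% of 20716 genes tested, a separation that the rule largely fixes. The background of the 2 contrasts the rule used, by edgeR's quasi-likelihood test at an adjusted p of 0.05, was 24.1% of 20716 genes tested higher in WT red than WT dark and 13.1% higher for phyB red against WT red.

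Levels were mostly low. The median WT red level was 7.64 RPKM, 28 genes reached 10 RPKM there, and 6 genes reached 100, namely LHCB2.2, RBCS2B, GASA6, LHCB1.4, LHCB2.3 and AT5G57785. Several genes stood close to a threshold. For the phyB step, GASA6 lay just inside at 1.5001 times, G6PD1 at 1.502 and AT5G46390 at 1.507 times, while CA1 and LAC5 lay just outside at 1.495 times and AT2G01755 at 1.49 times. For the red response, AT5G66520 was inside at 2.02 times and AT5G46390 and SOB5 at 2.03 times, while RPP13 at 1.97, RLP31 at 1.96 and RUP1 at 1.90 times were outside. For the level in WT red, AT4G28780 at 2.05, AT4G15700 at 2.11 and AT5G66520 at 2.17 RPKM were inside, while AT5G46450 at 1.97, CPL3 at 1.93 and AT2G27420 at 1.90 RPKM were outside. Of the 2 genes left out by name, ELIP1 stood at 2.38 and ELIP2 at 2.58 times WT red in phyB red.

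PhyAB red, the group that the rule did not read, lay below WT red for most of the genes and above WT dark for nearly all. With edgeR's quasi-likelihood test fitted to all 20716 genes tested, 47 of the 65 were lower in phyAB red than in WT red, 4 were higher and 14 were not called. Over all genes tested, 22.7% were lower and 22.3% were higher. Against phyB red, 59 were lower, 3 were higher and 3 were not called, beside 24.1% lower and 26.0% higher over all genes. Against WT dark, 57 were higher, 2 were lower and 6 were not called, beside 27.2% higher and 21.0% lower over all genes. Each of these 3 comparisons shares its other group with the rule. Genes were kept for a high phyB red and a low WT dark mean, which bears on the last 2 counts in the direction they show, while the WT red mean had to be high beside WT dark and low beside phyB red.

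The drop from WT red was close to that of the other red-raised genes, which were also chosen for a high WT red mean. The median log2 fold change of phyAB red against WT red was -0.88 over the 65 genes, -0.82 over 1099 other red-raised genes tested and 0.00 over all genes. Of those others, 78.5% were lower and 7.92% higher. Against phyB red the medians were -1.61, -0.89 and 0.01, and 74.3% of the other red-raised genes were lower. Against WT dark the medians were 1.16, 0.97 and 0.04, and 89.4% of the other red-raised genes were higher. As RPKM, the median ratio of phyAB red to WT red was 0.564 over the 65 genes and 0.594 over the others, and it ran from 0.144 for AT4G15690 to 2.69 for FAR5.

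**Figure D1:**
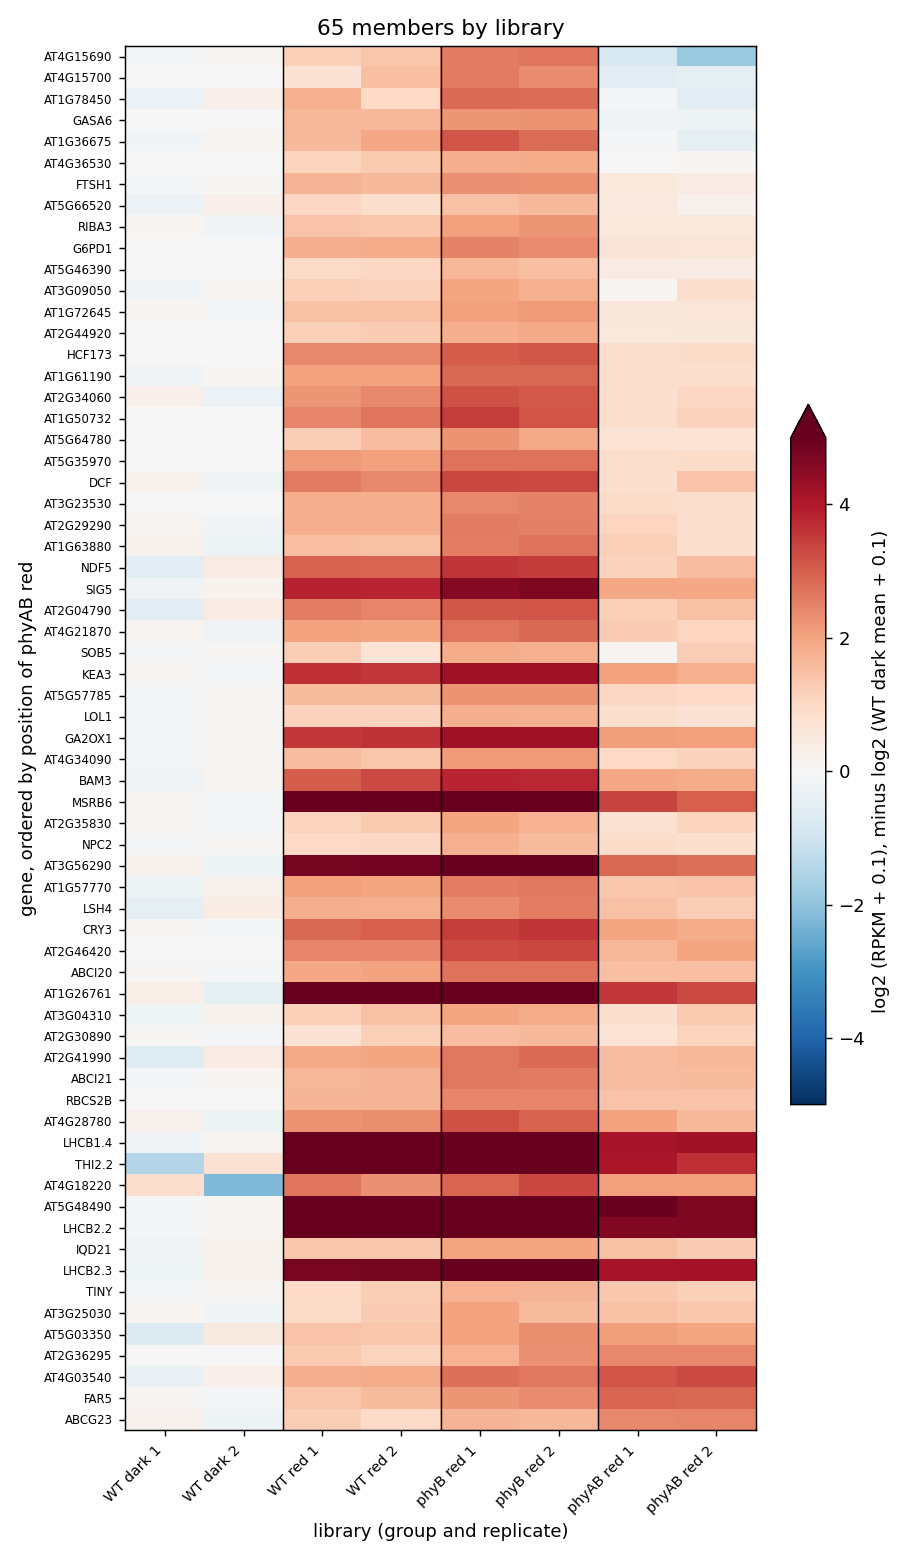
Each row is 1 of the 65 genes and each column 1 of the 8 libraries. Colour gives log2 (RPKM + 0.1) minus the same for the WT dark mean, with colours saturating at 5. Rows are ordered by where phyAB red lies between WT dark and phyB red on that scale, from AT4G15690 (below WT dark) to ABCG23 (above phyB red), and in 60 rows both phyAB red libraries are below both phyB red libraries.

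A position scale on log2 (RPKM + 0.1), with 0 at the WT dark mean and 1 at the phyB red mean, places phyAB red between these groups for most genes. The median position of phyAB red was 0.493, where that of WT red was 0.707. It was below 0 for 5 genes, from 0 to 0.25 for 3, from 0.25 to 0.5 for 25, from 0.5 to 0.75 for 26, from 0.75 to 1 for 2, and 1 or more for 4. By library, both phyAB red libraries lay below both WT red libraries for 54 genes (27.7% of all genes tested), above both for 6 (42.6% of all) and between or across them for 5. Against the phyB red libraries they lay below both for 60 genes (33.3% of all genes tested), above both for 4 (39.5% of all) and across them for 1. They lay above both WT dark libraries for 58 genes (44.2% of all genes tested), below both for 3 (27.9% of all) and across them for 4. Genes with a strong red response lay lower relative to WT red. The median ratio of phyAB red to WT red was 0.717 for the 38 genes raised 2 to under 4 times by red light, 0.444 for the 15 raised 4 to under 10 times, and 0.326 for the 12 raised at least 10 times. All 12 of the last set were lower in phyAB red than in WT red by the edgeR test, and all 12 were higher than in WT dark. Over all genes tested these shares were 22.7% and 27.2%, and the other red-raised genes were not split by their response. The WT red level enters both ratios, so this is a description.

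**Figure D2:**
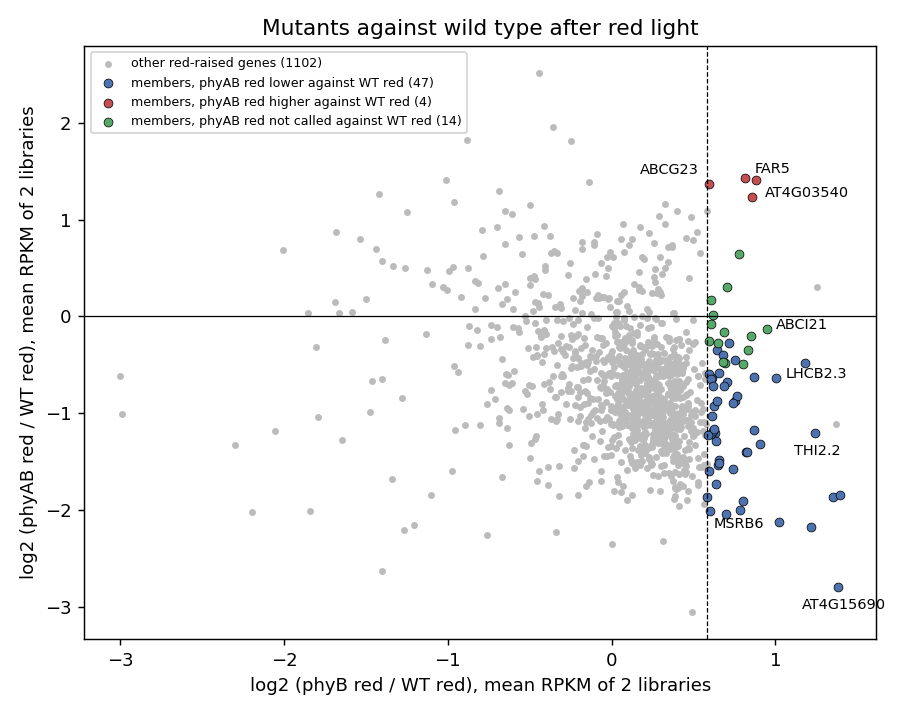
Each point is a gene that red light raised in wild type. The horizontal axis is log2 of phyB red over WT red and the vertical axis log2 of phyAB red over WT red, both from mean RPKM of 2 libraries. The dashed line is the threshold of 1.5 times. The 2 grey points well to its right are ELIP1 and ELIP2, and colour shows the edgeR call of phyAB red against WT red: 47 genes lower, 4 higher and 14 not called.

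The light-harvesting antenna and Rubisco gave 4 of the 65 genes. LHCB1.4 (AT2G34430, printed as LHB1B1 in the reference) and LHCB2.2 (AT2G05070) encode chlorophyll-binding proteins of the photosystem II antenna, as does LHCB2.3 (AT3G27690). LHCB1.4 stood at 4.80 and 5.73 RPKM for WT dark, 383 and 388 for WT red, 666 and 660.0 for phyB red, and 94.3 and 99.3 for phyAB red. Its phyAB red libraries lay far above WT dark and far below WT red, with a log2 fold change against WT red of -2.06 (SE 0.03, adjusted p = 1.91e-65, edgeR). LHCB2.2 stood at 7.27 and 8.14 RPKM for WT dark, 544 and 543 for WT red, 863 and 853 for phyB red, and 193 and 197 for phyAB red. The 4 groups did not overlap, and phyAB red was 0.358 times WT red.

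LHCB2.3 was the antenna gene with the largest phyB step. It stood at 4.64 and 6.27 RPKM for WT dark, 147 and 154 for WT red, 305 and 300.0 for phyB red, and 95.4 and 98.3 for phyAB red. PhyAB red was thus 0.642 times WT red (log2 fold change -0.70, SE 0.04, adjusted p = 1.08e-27, edgeR), a smaller drop than that of LHCB1.4. RBCS2B (AT5G38420), which encodes a small subunit of Rubisco, was already high in darkness. It stood at 158 and 161 RPKM for WT dark, 524 and 521 for WT red, 859.6 and 855 for phyB red, and 433 and 433 for phyAB red. PhyAB red lay below WT red by a log2 fold change of -0.33 (SE 0.02, adjusted p = 1.11e-22, edgeR), which did not pass a test against a 1.5-fold change.

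Relatives of these genes that are not among the 65 have ratios of phyB red to WT red under 1.5 by the rule itself, since they too were raised by red light, so the values are given only to show by how much. Families were put together after the 65 genes were known. LHCB1.1, LHCB1.2, LHCB1.3 and LHCB1.5 stood in phyB red at 1.29, 1.27, 1.304 and 1.31 times WT red, against 1.72 times for LHCB1.4. LHCB2.1 stood at 1.45 times, LHCB2.2 at 1.58 and LHCB2.3 at 2.01. RBCS1A stood at 1.13, RBCS1B at 1.31 and RBCS3B at 1.29 times, against 1.64 for RBCS2B. The WT red means of these relatives were 259 to 1969 RPKM for the 4 other LHCB1 genes and 492 to 1321 RPKM for the other RBCS genes. LHCB2.2 shares 94.4% of its bases with LHCB2.1, LHCB1.4 shares 91.6% with LHCB1.5, and RBCS2B shares 95.1% with RBCS3B over the aligned stretch. The assignment of reads that match several genes is not given in the sources at hand, so the differences within these pairs are uncertain.

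**Figure D3:**
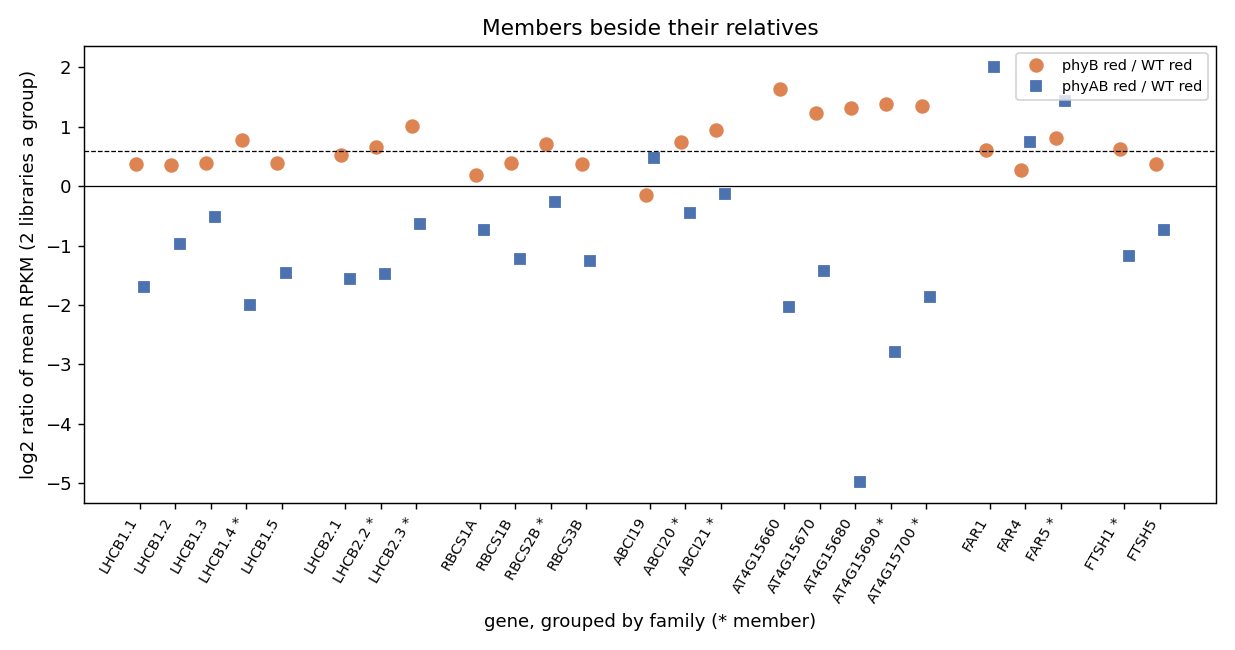
Each pair of symbols is 1 gene, with families side by side and the 65 genes marked by an asterisk. The vertical axis is the log2 ratio of mean RPKM of 2 libraries a group, with circles for phyB red over WT red, squares for phyAB red over WT red, and a dashed line at 1.5 times. All 5 glutaredoxin genes stand above the line in phyB red and below 0 for phyAB red, while FAR1, FAR4 and FAR5 stand above 0 for phyAB red.

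Genes that build and protect the photosynthetic apparatus followed the same order of groups. HCF173 (AT1G16720), which is needed to translate the D1 protein of photosystem II, stood at 11.1 and 10.7 RPKM for WT dark, 58.7 and 58.8 for WT red, 90.12 and 94.5 for phyB red, and 20.3 and 20.4 for phyAB red. The phyAB red libraries lay between the dark and the red wild type without touching either (log2 fold change against WT red -1.59, SE 0.05, adjusted p = 6.59e-48, edgeR). FTSH1, a thylakoid protease that removes damaged D1, fell to 0.440 times WT red in phyAB red. Its partner FTSH5 stood at 1.29 times WT red in phyB red and 1.99 times WT dark in WT red, each under its threshold. KEA3, a potassium/proton antiporter of the thylakoid, was raised 12.8 times by red light and reached 33.0 and 33.8 RPKM for phyB red but 7.02 and 5.93 for phyAB red. NDF5, a factor of the chloroplast NDH complex that drives cyclic electron flow, was raised 8.28 times and stood in phyAB red at 0.331 times WT red. All 4 were called lower in phyAB red than in WT red and in phyB red.

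Plastid gene expression, repair and redox genes behaved likewise. SIG5 (AT5G24120, SIGE in the reference), a nuclear-encoded sigma factor of the plastid RNA polymerase, stood at 1.49 and 1.91 RPKM for WT dark, 26.0 and 24.8 for WT red, 42.6 and 46.1 for phyB red, and 6.75 and 6.86 for phyAB red. CRY3 (AT5G24850), a DNA-repairing cryptochrome of chloroplasts and mitochondria, stood at 1.48 and 1.37 RPKM for WT dark, 11.03 and 11.9 for WT red, 16.7 and 18.3 for phyB red, and 5.82 and 5.45 for phyAB red. For both genes the 4 groups were separate and phyAB red was the third in level. Against WT red the log2 fold change was -1.97 for SIG5 (SE 0.07, adjusted p = 1.17e-39) and -1.08 for CRY3 (SE 0.10, adjusted p = 5.40e-16), both by edgeR.

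MSRB6 (AT4G04840) encodes a methionine sulfoxide reductase, an enzyme that repairs oxidised methionine in proteins. It stood at 2.24 and 2.02 RPKM for WT dark, 89.2 and 87.0 for WT red, 173 and 184 for phyB red, and 22.8 and 17.7 for phyAB red. WT red was 41.4 times WT dark and phyB red 2.03 times WT red, and phyAB red lay at 0.230 times WT red (log2 fold change -2.17, SE 0.06, adjusted p = 6.55e-47, edgeR). Its neighbours of the same family, MSRB3, MSRB4 and MSRB5, stood at 1.04, 1.05 and 1.04 times WT dark in WT red and at 0.961, 0.834 and 1.13 times WT red in phyB red. Among plastid enzymes, G6PD1 of the oxidative pentose phosphate pathway, BAM3, a beta-amylase of starch breakdown, and RIBA3 of riboflavin synthesis were lower in phyAB red, at 0.430, 0.411 and 0.540 times WT red.

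A word for the chloroplast, plastid, thylakoid or photosystem stands in the annotation of 20 of the 65 genes (30.8%). The same held for 35.2% of 1097 other red-raised genes with annotation text and for 11.4% of 17031 such genes at 2 RPKM or more in WT red. The search of words misses RBCS2B, KEA3, NDF5 and CRY3, so the 20 genes are not set against the others.

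**Figure D4:**
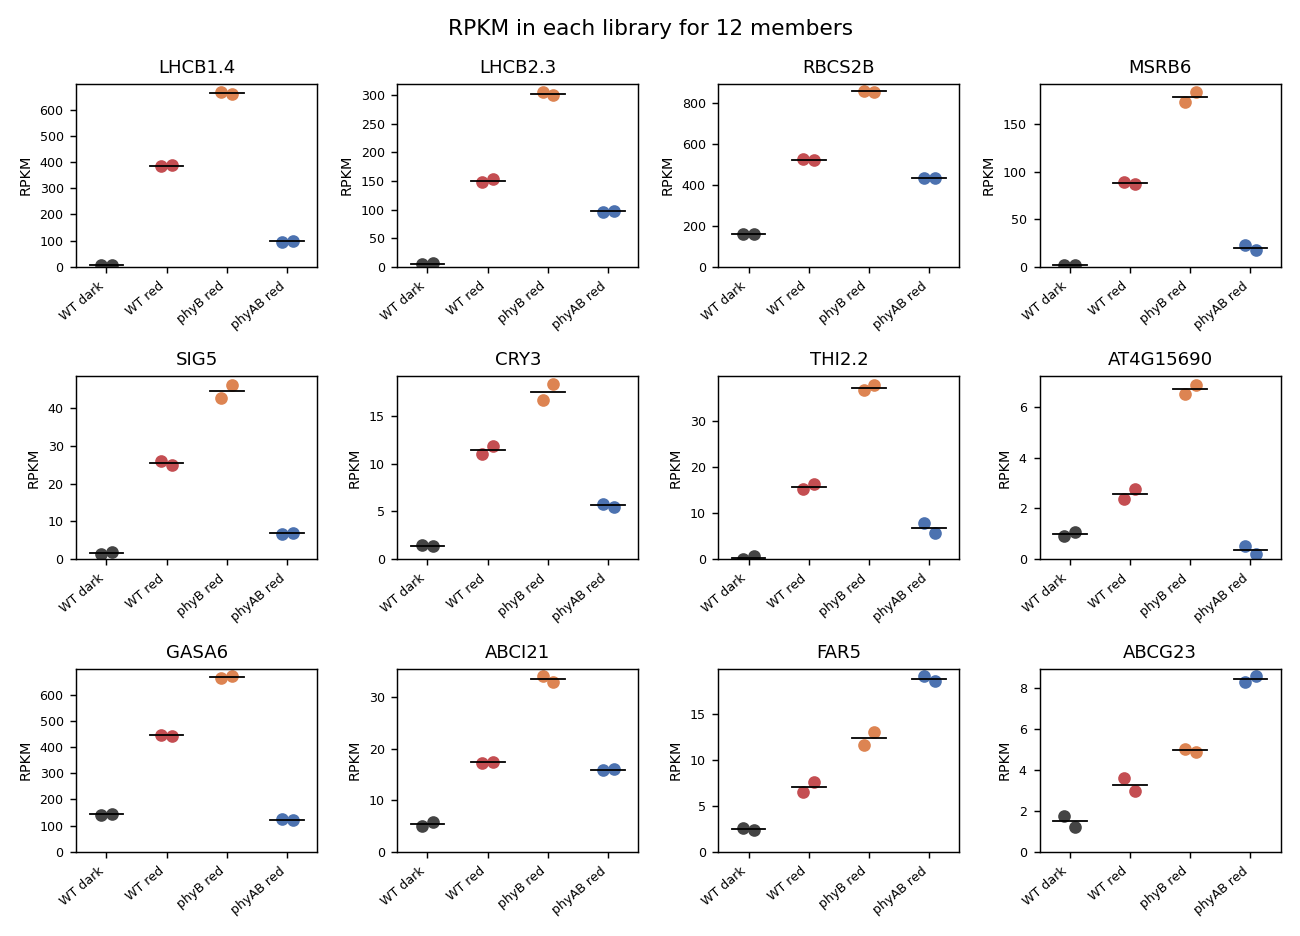
Each panel shows 1 gene, with a dot for each of the 8 libraries, a black line at the mean of 2 libraries, and RPKM on a linear axis from 0. PhyB red is the highest group in 10 panels and phyAB red in those of FAR5 and ABCG23, and phyAB red lies below WT dark for AT4G15690 and GASA6.

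AT4G15690 had the lowest ratio of phyAB red to phyB red of the 65 genes, at 0.0553. AT4G15690 and AT4G15700 encode glutaredoxin-like proteins, which the reference names thioredoxin superfamily proteins, and stand 2396 bases apart on chromosome 4. AT4G15690 stood at 0.918 and 1.07 RPKM for WT dark, 2.37 and 2.77 for WT red, 6.51 and 6.88 for phyB red, and 0.539 and 0.201 for phyAB red. Its phyAB red libraries lay below those of every other group. The log2 fold change of phyAB red was -2.73 against WT red (SE 0.48, adjusted p = 1.14e-06) and -1.35 against WT dark (SE 0.58, adjusted p = 0.0479, edgeR), and the second call was lost in 7 of the 8 fits that left out a library. AT4G15700 stood at 0.898 and 0.855 RPKM for WT dark, 1.52 and 2.69 for WT red, 5.78 and 4.97 for phyB red, and 0.553 and 0.602 for phyAB red. Here too phyAB red was lowest, but the difference from WT dark was not called (log2 -0.63, SE 0.61, adjusted p = 0.409), and that from WT red (log2 -1.88, adjusted p = 0.00141) was lost without WT red replicate 2 (adjusted p = 0.0721, edgeR).

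The other 3 genes of the same run, AT4G15660, AT4G15670 and AT4G15680, stood below the threshold of 2 RPKM and are described without a test. Their WT red means were 0.994, 1.11 and 1.47 RPKM, or 1.82, 1.4005 and 3.07 times WT dark, and the WT dark and WT red libraries of AT4G15660 overlapped (0.988 and 0.106 against 1.503 and 0.485 RPKM). PhyB red stood at 3.12, 2.34 and 2.49 times WT red, and phyAB red at 0.244, 0.373 and 0.0318 times. The 5 genes share a family and a place on the chromosome and are not 5 independent measurements.

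GASA6 (AT1G74670), a gibberellin-regulated peptide of the cell wall, was the gene with the highest level among those that phyAB red returned below WT dark. It stood at 141 and 144 RPKM for WT dark, 448 and 443 for WT red, 665 and 672 for phyB red, and 125 and 121 for phyAB red. All 4 groups were separate, and phyAB red was lower than WT dark by a log2 fold change of -0.25 (SE 0.04, adjusted p = 1.02e-06, edgeR), a small step that did not pass a test against 1.5-fold. GA2OX1 (AT1G78440), an enzyme that inactivates gibberellins, was raised 13.3 times by red light and stood at 15.7 and 15.3 RPKM for phyB red and at 3.502 and 3.39 for phyAB red. It stayed well above its dark level of 0.693 and 0.786 RPKM.

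AT1G78450, a SOUL haem-binding protein that lies 3888 bases from GA2OX1 on chromosome 1, had the highest phyB step of all by mean RPKM. In the edgeR fit its log2 step was 1.3196 (SE 0.20), beside 1.3490 (SE 0.27) for AT4G15690 and 1.3241 (SE 0.33) for AT4G15700. The order of these genes is thus not settled. AT1G78450 stood at 1.05 and 1.56 RPKM for WT dark, 4.71 and 2.71 for WT red, 9.94 and 9.58 for phyB red, and 1.23 and 0.841 for phyAB red. The 2 WT red libraries were far apart, and phyAB red overlapped WT dark (log2 fold change -0.32, SE 0.37, adjusted p = 0.511, edgeR). AT1G36675, annotated as a glycine-rich protein, stood at 0.865 and 1.06 RPKM for WT dark, 3.20 and 3.95 for WT red, 9.41 and 7.17 for phyB red, and 0.914 and 0.671 for phyAB red. It too was not called against WT dark (log2 -0.28, SE 0.43, adjusted p = 0.623) while it fell by 2.19 on the log2 scale against WT red (adjusted p = 2.54e-08, edgeR). AT5G66520 and AT4G36530 were the other 2 genes that were lower than in WT red and not called against WT dark. The call of AT5G66520 against WT red (log2 -0.69, adjusted p = 0.00731) was lost without WT red replicate 1 (0.0930) and without phyAB red replicate 2 (0.0741, edgeR), and the gene lies opposite AT5G66530 over 1958 bases.

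Defence genes were among those with a large phyB step. THI2.2 (AT5G36910) encodes a thionin, a small antimicrobial peptide. It stood at 0.0695 and 0.670 RPKM for WT dark, 15.2 and 16.3 for WT red, 36.6 and 37.8 for phyB red, and 7.89 and 5.78 for phyAB red. The groups were separate, and phyAB red lay below WT red by a log2 fold change of -1.23 (SE 0.15, adjusted p = 1.10e-11, edgeR). AT1G63880, a disease resistance protein of the TIR-NBS-LRR class, stood at 1.47 and 1.05 RPKM for WT dark, 3.74 and 3.62 for WT red, 7.98 and 8.70 for phyB red, and 2.97 and 2.32 for phyAB red. AT1G61190, another resistance protein with NB-ARC and leucine-rich repeat domains, stood at 7.23 and 7.17 RPKM for WT red, 13.2 and 13.1 for phyB red and 3.22 and 3.17 for phyAB red. Both fell in phyAB red against WT red (adjusted p = 0.000183 and 3.36e-19, edgeR). AT1G61190 shares 91.8% of its bases with AT1G61180 over the aligned stretch, which stood at 14.6 RPKM in WT red and 0.976 times that in phyB red, so reads of the pair may be split between them.

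The gene with the largest red response was AT1G26761, annotated as an arabinanase/levansucrase/invertase. It had 0.0702 and 0 RPKM for WT dark, 5.34 and 5.69 for WT red, 9.15 and 8.75 for phyB red, and 1.46 and 1.23 for phyAB red. Only 2 reads stood behind the WT dark value. Against it the ratio by reads was 151 for WT red (95% exact interval 41.5 to 1257, counting error only) and 37.4 for phyAB red (10.001 to 315), so phyAB red was above darkness yet at 0.244 times WT red. AT3G56290, annotated as a potassium transporter, was raised 29.8 times and stood at 1.72 and 1.21 RPKM for WT dark, 43.5 and 43.8 for WT red, 63.4 and 68.9 for phyB red, and 11.3 and 10.5 for phyAB red. AT5G48490, of the lipid-transfer protein family, was raised 81.5 times, with 46.9 and 47.3 RPKM for WT red, 89.8 and 86.9 for phyB red and 20.7 and 17.1 for phyAB red. AT5G57785, an uncharacterised protein, stood at 34.8 and 37.2 RPKM for WT dark, 109 and 108 for WT red, 173 and 170.5 for phyB red, and 73.1 and 72.3 for phyAB red. These 4 genes were lower in phyAB red than in both other red groups and higher than in WT dark.

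A few genes departed from this order by standing highest in phyAB red. FAR5 (AT3G44550), a fatty acyl reductase that makes alcohols for suberin, stood at 2.57 and 2.33 RPKM for WT dark, 6.48 and 7.55 for WT red, 11.6 and 13.0 for phyB red, and 19.1 and 18.6 for phyAB red. ABCG23 (AT5G19410), a membrane transporter of the ABC class, stood at 1.73 and 1.23 RPKM for WT dark, 3.62 and 2.94 for WT red, 5.02 and 4.87 for phyB red, and 8.28 and 8.57 for phyAB red. AT4G03540, a CASP-like membrane protein, stood at 1.31 and 2.05 RPKM for WT dark, 6.13 and 6.31 for WT red, 11.9 and 10.96 for phyB red, and 15.5 and 17.4 for phyAB red. In all 3 genes the groups were separate and rose from WT dark to WT red, phyB red and phyAB red. Against WT red the log2 fold change of phyAB red was 1.37 for FAR5 (SE 0.09, adjusted p = 1.74e-23), 1.28 for ABCG23 (SE 0.13, adjusted p = 6.45e-14) and 1.33 for AT4G03540 (SE 0.19, adjusted p = 2.78e-09), all by edgeR.

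Against phyB red the same 3 genes were higher by smaller amounts. The log2 fold change was 0.58 for FAR5 (SE 0.08, adjusted p = 2.40e-09), 0.75 for ABCG23 (SE 0.12, adjusted p = 1.87e-07) and 0.50 for AT4G03540 (SE 0.16, adjusted p = 0.00748, edgeR). The last call was lost with DESeq2 (adjusted p = 0.0727), without phyB red replicate 2 (0.0882) and without phyAB red replicate 2 (0.0780), and none of the 3 passed a test against 1.5-fold. AT2G36295, an uncharacterised protein, stood at 0.994 and 0.968 RPKM for WT dark, 2.57 and 2.22 for WT red, 3.53 and 5.16 for phyB red, and 5.59 and 5.67 for phyAB red. It was higher in phyAB red than in WT red (log2 1.16, SE 0.29, adjusted p = 0.000515, edgeR) and was not called against phyB red (adjusted p = 0.304).

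FAR1 and FAR4, relatives of FAR5, also stood high in phyAB red, and the other genes of the family were not looked at. FAR1 stood at 120.2 and 116 RPKM for WT dark, 31.3 and 30.5 for WT red, 46.4 and 47.8 for phyB red, and 122 and 127 for phyAB red, so that, unlike FAR5, its level went down in red light. FAR4 stood at 3.93 and 4.80 RPKM for WT dark, 8.18 and 8.27 for WT red, 9.32 and 10.5 for phyB red, and 12.9 and 14.5 for phyAB red. In both phyAB red lay above WT red, by 4.03 times in FAR1 and 1.67 times in FAR4. The cutin gene DCF (AT3G48720), an acyltransferase that feruloylates the cuticle, went the other way, with 5.65 and 4.89 RPKM for WT red, 9.39 and 9.34 for phyB red and 1.58 and 2.42 for phyAB red.

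In 14 genes phyAB red was not called against WT red, with log2 fold changes of -0.54 to 0.58 and adjusted p of 0.0554 to 0.850 (edgeR). This does not show that the 2 groups were equal. Of the 14, 11 were higher than in WT dark and lower than in phyB red, so that phyAB red and WT red both lay between those groups. ABCI21 (AT5G44110), a soluble protein of the ABC class, had the highest mean of these in phyB red. It stood at 5.002 and 5.76 RPKM for WT dark, 17.3 and 17.5 for WT red, 34.1 and 33.0 for phyB red, and 15.8 and 16.1 for phyAB red. The phyAB red libraries lay just under those of WT red (log2 fold change -0.19, SE 0.09, adjusted p = 0.0717, edgeR). Its relative ABCI20 was called lower at 0.731 times WT red, with 37.1 and 39.2 RPKM for WT red, 64.5 and 63.9 for phyB red and 28.0 and 27.8 for phyAB red. ABCI19, the remaining gene of the group, stood at 0.920 times WT dark in WT red and at 0.901 times WT red in phyB red.

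The 14 genes included regulators of growth and transcription. TINY (AT5G25810), a transcription factor of the AP2/ERF family, stood at 7.80 and 8.46 RPKM for WT dark, 16.3 and 19.0 for WT red, 27.4 and 26.4 for phyB red, and 21.0 and 18.6 for phyAB red. Its phyAB red libraries overlapped those of WT red (log2 0.12, SE 0.09, adjusted p = 0.284) and lay below those of phyB red (log2 -0.45, SE 0.08, adjusted p = 2.65e-06, edgeR). IQD21, a calmodulin-binding protein, stood at 5.002 and 4.96 RPKM for WT red and 5.40 and 4.67 for phyAB red. LSH4, a nuclear protein of the ALOG family, stood at 2.40 and 2.40 RPKM for WT red and 1.86 and 1.57 for phyAB red. SOB5, whose overexpression suppresses the tall phenotype of phyB mutants, stood at 4.10 and 2.75 RPKM for WT red, 6.27 and 6.09 for phyB red, and 1.87 and 4.09 for phyAB red. The 2 phyAB red libraries of SOB5 were far apart, and of the 3 comparisons it was called only against phyB red (log2 -1.13, SE 0.26, adjusted p = 0.000119, edgeR). Without phyAB red replicate 1 that call was lost (log2 -0.61, adjusted p = 0.0851) and SOB5 was called higher than WT dark (0.00276, and 0.0436 with all libraries and no filter), while without phyAB red replicate 2 it was called lower than WT red (log2 -0.96, adjusted p = 0.0263, edgeR). LOL1, a zinc-finger protein that promotes cell death, was outside this set, at 0.789 times WT red (adjusted p = 0.000245, edgeR).

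AT3G25030 and AT5G03350 were the 2 genes in which phyAB red was called neither against WT red nor against phyB red. AT3G25030, a RING/U-box protein, stood at 1.253 and 1.05 RPKM for WT dark, 2.31 and 2.91 for WT red, 4.90 and 3.61 for phyB red, and 3.39 and 3.08 for phyAB red. AT5G03350, of the legume lectin family, stood at 0.456 and 1.08 RPKM for WT dark, 2.26 and 2.18 for WT red, 3.38 and 4.22 for phyB red, and 3.56 and 3.36 for phyAB red. In both, phyAB red lay above WT red, and it lay below phyB red in AT3G25030 and overlapped it in AT5G03350. The difference from WT red was 0.58 on the log2 scale for AT5G03350 (SE 0.25, adjusted p = 0.0554) and 0.26 for AT3G25030 (SE 0.23, adjusted p = 0.369, edgeR). AT5G03350 was called higher than WT red with no filter (0.0484), with only the 4 libraries compared (0.0421) and without WT dark replicate 1 (0.0448) or 2 (0.0461), and AT3G25030 was called lower than phyB red without phyB red replicate 2 (adjusted p = 0.0420, edgeR). Both were higher than in WT dark.

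The remaining genes held enzymes, transporters and proteins of unknown role and mostly followed the majority. In all, 40 of the 65 were higher than WT dark, lower than WT red and lower than phyB red in phyAB red. The share of genes outside the 65 with all these calls together was not counted. Taken singly, 89.4%, 78.5% and 74.3% of the other red-raised genes had these calls, so the pattern is not shown to be particular to the 65. Among the remaining genes called so were AT2G34060, a peroxidase, at 0.379 times WT red, AT4G21870, an HSP20-like chaperone, at 0.564 times, AT3G23530, a cyclopropane-fatty-acyl-phospholipid synthase, at 0.528 times, AT2G46420 at 0.646 times and AT5G35970 at 0.433 times. The others of this kind were AT1G50732 at 0.336, AT2G04790 at 0.436, AT2G29290 at 0.547, AT1G72645 at 0.548, AT2G44920 at 0.607, AT5G64780 at 0.609, AT3G09050 at 0.626, AT1G57770 at 0.641, AT5G46390 at 0.662 and AT4G34090 at 0.759 times WT red. AT3G23530 shares 96.4% of its bases with AT3G23510 over the aligned stretch, so its values are uncertain. AT4G18220, a drug/metabolite transporter, and AT4G28780, a GDSL lipase, were not called against WT red at 0.723 and 0.710 times. The non-specific phospholipase NPC2 at 0.895, AT2G30890 at 0.944, AT3G04310 at 0.840, AT2G35830 at 0.827 and AT2G41990 at 0.788 times WT red were likewise not called.

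Several calls of these and other genes rested on few libraries. Against WT dark, AT3G09050 (adjusted p = 0.0459) was lost with DESeq2 (0.126), with DESeq2 size factors (0.0543), with only the 4 libraries compared (0.0739) and in 3 fits that left out a library (0.0554 to 0.816). Against WT red it was lost without phyAB red replicate 1 (adjusted p = 0.0720, edgeR). AT5G46390 lost its call against WT dark with DESeq2 (adjusted p = 0.0928), with only the 4 libraries compared (0.0601) and in 4 fits that left out a library, and AT5G64780 with DESeq2 (0.0517) and in 3 such fits. AT4G34090 lost its call against WT red without phyAB red replicate 1 (adjusted p = 0.0556, edgeR). Against WT dark, single libraries also decided AT2G34060 (0.110 without WT dark replicate 2), RIBA3 (0.132 without WT dark replicate 2), AT2G44920 (0.0572 without WT dark replicate 1) and LSH4 (0.0875 without WT dark replicate 1), all as edgeR adjusted p. AT2G30890 lost both its calls in fits without a library (adjusted p = 0.0550 to 0.159, edgeR). AT4G18220, with 15 and 0 reads in WT dark, lost both its calls with DESeq2 (adjusted p = 0.455 against phyB red and 0.132 against WT dark).

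Of 193 genes on 14 lists of light, hormone, stress and plastid pathways, 2 (1.04%) are among the 65, which make up 0.237% of all gene models. By list, the list of DNA photolyases and UV-B markers gave 2 of 5 (CRY3 and SIG5), and the list of chloroplast development and sigma factors gave 1 of 10 (SIG5 again). Lists of light receptors, B-box factors, flavonoid synthesis, chlorophyll and carotenoid synthesis, photoprotection, shade, SAUR, Aux/IAA and GH3, clock, heat and cold genes gave 0, where the photoprotection list holds ELIP1 and ELIP2, which were left out by name. Both lists that held a member were mostly lower in phyAB red, and so were several lists that held none. CRY3 and SIG5 are themselves in the counts that follow. By the conditions on wild type, 3 of the 5 and 8 of the 10 genes of these lists were red-raised. Against WT red, 5 of 5 photolyase and UV-B genes were lower (median log2 -1.08), as were 9 of 10 chloroplast and sigma factor genes (median -0.88). Of the 9 chlorophyll synthesis genes, 7 were lower and 2 higher, and of the 9 carotenoid genes 8 were lower. Lower and higher were 9 and 2 of 11 photoprotection genes, 20 and 4 of 29 light receptor genes, and 12 and 5 of 19 B-box genes tested. They were 12 and 3 of 17 clock genes, 5 and 0 of 10 cold genes, and 4 and 4 of 12 heat genes. The light receptor count includes PHYA and PHYB, the genes the phyAB label names, and both were called lower. SAUR genes gave 3 lower and 11 higher of 16, and Aux/IAA and GH3 genes 2 lower and 9 higher of 13. The shade and PIF-induced genes, which hold none of the 65, gave 14 of 14 higher in phyAB red than in WT red (median 1.07), and 8 of 16 flavonoid genes tested were higher and 2 lower. The medians stand beside 0.00 over all genes. The counts stand beside 22.7% lower and 22.3% higher over all genes tested, and 78.5% lower over the other red-raised genes.

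Promoters were read for all 65 genes as the 250 bases before the annotated start in RefSeq's TAIR10.1 assembly. Searched on both strands, the G-box core CACGTG, bound by PIFs and by HY5, was in 4 promoters (6.15%), against 11.03% of 1097 other red-raised genes and 6.49% of 27443 promoters. Of these, 3 are shown: those of an antenna gene, of a Rubisco gene and of the gene with the largest red response, whose levels are given above. Capitals mark the G-box, and each is written 5′ to 3′ on the strand of the gene.
AT1G26761, chr1:9251660-9251909, minus strand: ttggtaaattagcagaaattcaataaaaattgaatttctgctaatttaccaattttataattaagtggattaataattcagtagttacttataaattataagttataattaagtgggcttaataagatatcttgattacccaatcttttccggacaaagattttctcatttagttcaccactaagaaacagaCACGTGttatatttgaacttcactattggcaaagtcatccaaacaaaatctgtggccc
LHCB2.3, chr3:10255656-10255905, plus strand: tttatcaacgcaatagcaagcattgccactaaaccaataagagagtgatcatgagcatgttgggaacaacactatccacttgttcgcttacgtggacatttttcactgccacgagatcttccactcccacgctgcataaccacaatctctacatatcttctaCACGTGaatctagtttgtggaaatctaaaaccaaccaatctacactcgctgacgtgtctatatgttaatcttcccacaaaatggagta
RBCS2B, chr5:15382072-15382321, minus strand: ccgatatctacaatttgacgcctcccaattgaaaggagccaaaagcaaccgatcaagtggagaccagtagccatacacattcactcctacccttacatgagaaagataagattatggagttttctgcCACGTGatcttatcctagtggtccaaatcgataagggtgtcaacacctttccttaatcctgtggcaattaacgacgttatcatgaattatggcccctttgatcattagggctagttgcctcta

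The shares of the other motifs were not tested. The ACGT core, which the G-box contains, was in 43.1% of the 65 promoters, 51.0% of the other red-raised and 44.1% of all. CACATG was in 15.4%, 11.4% and 11.1%, GATAAG in 9.23%, 14.7% and 12.3%, and TTGAC in 55.4%, 43.0% and 44.9%. The evening element AAAATATCT was in 0 of the 65, 3.01% of the other red-raised and 2.36% of all. CCGAC was in 13.8%, 12.5% and 12.0%, TGTCTC in 15.4%, 11.3% and 10.9%, AAAAATCT in 10.8%, 8.30% and 6.69%, GGTTAA in 15.4%, 13.5% and 14.6%, GAANNTTC in 12.3%, 7.47% and 9.55%, and CATGCA in 9.23%, 8.57% and 8.43%. A match says only that these letters are in the window.

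The 65 genes lay on all 5 chromosomes, with 14, 12, 10, 11 and 18 on chromosomes 1 to 5. Next to one another in the annotation stood 3 pairs, all on 1 strand. They were GA2OX1 with AT1G78450, MSRB6 with KEA3 (chr4:2449434-2457767, 1012 bases apart), and AT4G15690 with AT4G15700. The gene models had a median length of 1198 bases, against 1300.5 for the other red-raised genes and 1491 for genes at 2 RPKM or more in WT red. A total of 17 genes overlap another annotated gene, 13 of them on the opposite strand, among them HCF173, GASA6, NDF5, FTSH1, BAM3, RIBA3 and LHCB2.3 (595 bases shared with AT3G27700). Whether the counting used strand is not given in the sources used here, so reads of such pairs cannot be told apart.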

How the data were processed

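The deposited files give, per the file headers, for each gene model the read counts, which were not normalized, and the RPKM computed by the authors. Dividing counts by RPKM gave the same length in every library for 18010 of 18010 gene models (tolerance 0.5 base). The build was TAIR10 per the submitters' processing notes. No source used here names an aligner, a counter or a strand setting, or says how reads matching several genes were treated.

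RPKM served to choose and describe the genes. Counts were fitted in edgeR 4.0.16 (R 4.3.3) over all 8 libraries with 4 group means, TMM scaling and filterByExpr at a minimum count of 10, which kept 20716 genes and all 65 described. The quasi-likelihood F-test was adjusted by Benjamini-Hochberg over all genes and called at 0.05, with SE as the absolute log2 fold change over the square root of F. The fit was tested on simulated data. DESeq2 1.42.0 was an alternative. Positions, names and promoters come from TAIR10.1, in which all 65 genes were found. Near copies came from blastn 2.17.0, at 90% identity over 50% of the length.

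The genes and lists were chosen with earlier results of these data known. Genes with values in every library were the 8 highest in WT red, the 8 with the largest phyB step, the 6 highest and 6 lowest ratios of phyAB red to WT red, the 4 with phyAB red closest to phyB red, and those on a list. Other genes are named for their role, after their values were seen.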

Additional observations from a re-analysis of the deposited data

How the results depend on the processing

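The choice of genes depends on the rule's cut-offs. It gave 71 and 64 genes from the replicate 1 or replicate 2 libraries alone, of which 49 and 50 are among the 65. Only 37 of the 65 were chosen from each replicate alone. With TMM or DESeq2 scaling it gave 48 or 52 genes, of which 47 and 51 are among the 65. It gave 32 genes when every library had to pass, 44 at 5 RPKM, 129 with no minimum level and 8 at a phyB step of 2 times. Replicate numbers did not pair the libraries (correlations of deviations -0.0187 to 0.00907 over 15272 genes). With the replicate block, 9295, 10351 and 9966 genes were called against WT red, phyB red and WT dark, beside 9312, 10380 and 9986 without it. In that block, 1 of the 65 genes was lower than WT dark, beside 2 in the main fit, since AT4G15690 was lost (adjusted p = 0.0510, edgeR). The same count was 1 with no filter and with DESeq2, 0 against a 1.5-fold change, and 1 to 2 when leaving out each library. Genes higher than phyB red numbered 0 against a 1.5-fold change, beside 3. DESeq2 called 7035, 8172 and 7643 of all genes, and the 1.5-fold test left 34 of the 65 lower than WT red, 53 lower than phyB red and 41 higher than WT dark. Leaving out each library gave 45 to 47 lower and 4 to 5 higher than WT red, 57 to 59 lower and 2 to 3 higher than phyB red, and 51 to 57 higher than WT dark. No called gene changed direction. Depth limits low genes most: 21 of the 65 had under 50 reads in WT dark and 4 in phyAB red.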
